A study of Mus musculus with 19 samples.

Results

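The cytosolic heat shock proteins examined here were Hspa1a, Hspa1b, Hspa8, Hspa4, Hsph1, Hsp90aa1, Dnajb1, Dnajb5, Hspb1 and Cryab. They were picked by gene symbol, with earlier results of these data known, and all 10 were found among the 51789 genes of the count table. Every one passed the filter on low counts in every comparison. The tissue was dorsal hippocampus of male C57BL/6J mice aged 2 to 4 months, and total RNA was sequenced in 19 libraries after removal of ribosomal RNA. Each library is taken here as 1 mouse, which the labels do not state outright. In experiment 1 all mice carried tTA, the tetracycline transactivator, which switches on transgenes behind a tet promoter, and all had the exposure SOR, which the labels give only by this abbreviation. Of these, 5 were tTA+/DN+ and 6 were tTA+/DN-. DN stands for Nr4ADN, a dominant-negative Nr4A transcription factor, and the DN- controls had tTA and SOR as well. In experiment 2 all mice were DN-, with 4 given SOR and 4 left in the homecage. The SOR mice were tTA- in replicate 1 and tTA+ in replicates 2 to 4, and the homecage mice were tTA- in replicates 1 and 2 and tTA+ in replicates 3 and 4. The promoter and the cells that drive tTA are not given in the sources used here. The time between exposure and dissection is not given either.

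Heat shock proteins are chaperones: they hold unfolded proteins, help them fold and pass some of them on for degradation. In the cytosol, HSP70 proteins bind short exposed stretches of a client in a cycle of ATP hydrolysis that J-domain proteins start and that HSP110 proteins reset by exchanging the nucleotide. HSP90 takes over clients at a late stage, and the small heat shock proteins hold unfolded proteins without ATP. Heat shock factor 1 (HSF1) drives the inducible members by binding the heat shock element, a row of short units of alternating direction. Neurons are known to hold large amounts of the constitutive members, and to induce HSP70 less readily than glia do.

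Libraries held 22258159 to 66991576 counts, and the smallest was SOR replicate 3 of experiment 2. All 7 hippocampal neuron markers listed had counts in every library, with a summed level of 3672 to 4966 CPM, which are counts scaled to a common library total. Choroid plexus markers summed to over 1000 CPM in 5 libraries (control replicates 1 and 2 and DN replicate 2 of experiment 1, SOR replicates 1 and 2 of experiment 2) and to 23.0 to 178 CPM in the other 14.

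The promoter sequences of the members are shown first, because heat induces several of these genes through an element there that HSF1 reads. RefSeq windows on GRCm38.p6, from 250 bases before to 50 bases after a start, were found for 7 of the 10 members, with none for Hspa8, Hsp90aa1 and Cryab. The element was searched as 2 units (GAANNTTC or TTCNNGAA) and as 3 units (GAANNTTCNNGAA or TTCNNGAANNTTC). The 2-unit motifs read the same on both strands, each 3-unit motif is the other's reverse complement, and every 3-unit match also holds 2-unit matches. A 2-unit match lay in the windows of 4 of the 7 members (Hspa1a, Hspa1b, Hspb1 and Hsph1), against 17% of 27025 genes with a window. The windows of Hspa1a and Hspa1b were 98.7% identical and hold the same match, so these 2 are not separate cases. A 3-unit match lay in those of Hsph1 alone among the 7, against 0.662% of genes. The windows of Dnajb1, Dnajb5 and Hspa4 held neither, which says only that these letters are not in these windows.

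The stretches of 60 bases around the matches before the start are given 5′ to 3′ on the strand of the gene, with the matches in capitals. They lie at chr17:34972227-34972286 on the minus strand (Hspa1a), chr17:34959309-34959368 on the minus strand (Hspa1b), chr5:135887786-135887845 on the plus strand (Hspb1) and chr5:149636337-149636396 on the minus strand (Hsph1).
Hspa1a: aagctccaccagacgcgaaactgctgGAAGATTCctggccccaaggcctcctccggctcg
Hspa1b: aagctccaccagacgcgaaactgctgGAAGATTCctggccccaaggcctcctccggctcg
Hspb1: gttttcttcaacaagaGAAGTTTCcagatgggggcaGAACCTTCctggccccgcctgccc
Hsph1: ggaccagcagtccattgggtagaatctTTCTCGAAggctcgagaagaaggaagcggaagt
The stretch was identical in Hspa1a and Hspa1b, with the match 104 to 97 bases before the start in both. Hspb1 held 2 matches, the nearer one 97 to 90 bases before the start. The 3-unit match of Hsph1, TTCTGGAAAGTTC, lay after the start, at bases 37 to 49 (chr5:149636288-149636300). The table gives Hsph1 2 starts: positions here count from the first, and from the second the match lay at bases 16 to 28.

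Hspa1a (ENSMUSG00000091971.3, chromosome 17, 34969190 to 34972156, minus strand) and Hspa1b (ENSMUSG00000090877.3, chromosome 17, 34956436 to 34959238, minus strand) encode the inducible HSP70, and each has 1 exon. Their coding sequences in GENCODE were 99.43% identical, with 11 differences, and the encoded proteins of 641 and 642 residues differed at 1 position. The whole transcripts, which include the untranslated ends, were 85.33% identical. Of the 50-base stretches of the Hspa1a transcript, 41.19% did not occur in that of Hspa1b, and 37.69% the other way round, so part of the reads could be placed on one copy and part could not. How reads that match both were counted is not given in the sources used here. The value of each copy is therefore uncertain, and the sum of both is given beside it. The 300-base promoter windows of the copies differed at 4 positions, C44T, T47C, T249G and C276T, counted from the 5′ end of the window with the base of Hspa1a first. The pair of differences farthest from the start is shown in capitals, at chr17:34972332-34972391 for Hspa1a and chr17:34959414-34959473 for Hspa1b.
Hspa1a: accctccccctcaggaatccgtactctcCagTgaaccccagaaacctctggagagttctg
Hspa1b: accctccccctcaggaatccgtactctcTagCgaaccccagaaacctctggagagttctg

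The members spanned a wide range of levels, which can be compared between genes only per length of exon, as CPM per kilobase (RPKM). In the homecage, Hspa8, the constitutive HSP70, stood highest at 509 ± 66.2 RPKM (SD, n = 4). Hsp90aa1, the inducible form of cytosolic HSP90, followed at 331 ± 34.7 RPKM. Hspa4, a member of the HSP110 family, came next at 66.2 ± 2.94 RPKM. Cryab, the small heat shock protein alpha-B crystallin, which is abundant in oligodendrocytes and astrocytes, stood at 38.8 ± 3.72 RPKM. Hsph1 (HSP105), an HSP110 exchange factor, stood at 35.7 ± 1.85 RPKM. The ranges of Cryab and Hsph1 overlapped, although Cryab was the higher of the pair within each of the 4 homecage libraries.

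Lower in the homecage order were the J-domain cochaperones Dnajb1, at 14.8 ± 1.74 RPKM, and Dnajb5, at 13.8 ± 0.460 RPKM, whose ranges also overlapped, with Dnajb1 higher in 3 of 4 libraries. The small heat shock protein Hspb1 (HSP27) stood at 3.93 ± 0.925 RPKM, and Hspa1b at 3.29 ± 0.171 RPKM, again with overlap and with Hspb1 higher in 3 of 4 libraries. Hspa1a was lowest, at 1.81 ± 0.170 RPKM. The inducible HSP70 pair was thus read from few counts, 119 to 451 per library for Hspa1a and 263 to 1107 for Hspa1b, against 53227 to 161530 for Hspa8. The order was the same after SOR in experiment 2, where Hspb1 no longer overlapped Hspa1b. In both groups of experiment 1, Dnajb5 stood above Dnajb1 within every library, though their ranges overlapped. With the longest transcript as the length in place of all exons, 6 of the 10 members kept their rank in the homecage and 6 after SOR in experiment 2, as Cryab and Hsph1 changed places and Dnajb1 and Dnajb5 did too.

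**Figure D1:**
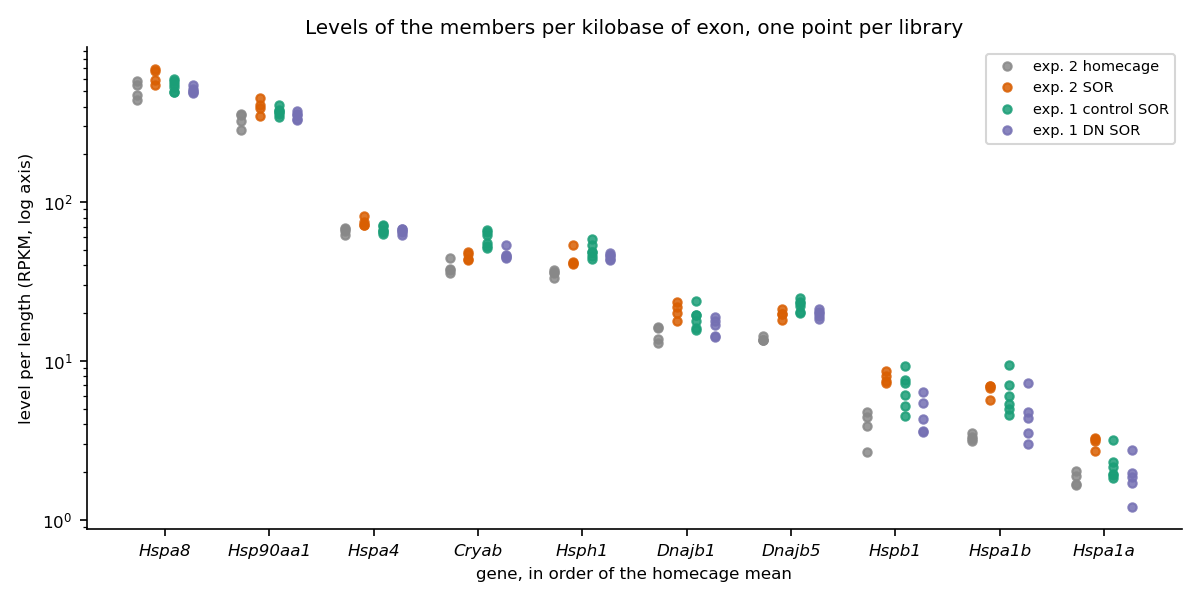
Level per kilobase of exon (RPKM, log axis) of the 10 members in the order of their homecage means, with 1 point per library and a colour per group. Hspa8 at 509 RPKM and Hsp90aa1 at 331 RPKM stand highest, and Hspa1a at 1.81 RPKM is lowest in the homecage.

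The first comparison asked how the members differed between control mice after SOR and control mice in the homecage. All 10 had a higher mean after SOR, with a median log2 fold change of 0.41 against 0.01 over the 22305 genes tested, of which 51.5% were higher. Hspa1b and Dnajb5 rose, being called by edgeR at an adjusted p under 0.05, where 0.0897% of all genes were called. In all 10 the unadjusted p was under 0.05, against 7.6% of all genes in either direction and 3.67% in the higher direction. That count was 6 without homecage replicate 1 or 2, 7 without SOR replicate 1, and 8 to 10 with any other library left out. The share of all genes was not counted in those fits. In 7 of the 10 every SOR library lay above every homecage library, against 5.72% of genes without overlap in either direction and 3.07% in the higher direction. The exceptions were Hspa8, Hsp90aa1 and Cryab. The sum of 12 activity-regulated genes separated too, at 616 to 676 CPM after SOR and 433 to 478 CPM in the homecage. Of the 12, 11 were higher, 9 of them without overlap, with Arc and Fos called and Npas4 lower. Homer1 (mean 312 against 235 CPM) and Arc (130 against 75.4 CPM) had the highest levels in the sum. The part of these genes in the differences of the members was not tested. Values below are listed in the order of the replicate numbers. In whole tissue, more cells of a type and more RNA per cell cannot be told apart.

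The inducible HSP70 pair and Hspb1 showed the greatest differences of the 10. Hspa1b measured 15.9, 19.5, 18.9 and 19.4 CPM in the SOR libraries (replicates 1 to 4), against 8.81, 9.25, 8.99 and 9.90 CPM in those of the homecage. The lowest SOR library lay well above the highest homecage library. The log2 fold change was 0.99 (SE 0.104), a 1.99-fold rise, at an edgeR adjusted p of 0.00879. Hspa1a measured 9.31, 9.69, 8.08 and 9.53 CPM in the SOR libraries, against 4.92, 5.57, 4.98 and 5.97 CPM in the homecage. Its groups did not overlap either, but with a log2 fold change of 0.77 (SE 0.124) and an edgeR adjusted p of 0.0525 it was not called.

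Because reads can move between the copies, their counts were also summed and tested as 1 gene among 22304. The sum measured 25.2, 29.2, 27.0 and 28.9 CPM in the SOR libraries, against 13.7, 14.8, 14.0 and 15.9 CPM in the homecage. It rose by 0.92 on the log2 scale (SE 0.0935), at an edgeR adjusted p of 0.00724. Hspa1b took 62.4% to 64.4% of the summed counts in the homecage libraries and 63.0% to 70.1% after SOR.

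Hspb1 (ENSMUSG00000004951.10, chromosome 5, 135887919 to 135889563) measured 8.88, 8.34, 7.66 and 7.51 CPM in the SOR libraries, against 4.55, 2.75, 4.93 and 3.99 CPM in the homecage. Every SOR library lay above every homecage library. The log2 fold change of 0.996 (SE 0.177) was of the size of that of Hspa1b, but the homecage libraries were spread more widely, with a coefficient of variation of 23.5% against 5.17%. Hspb1 was not called, with an edgeR adjusted p of 0.0915.

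The J-domain members stood next. Dnajb5 (ENSMUSG00000036052.14, chromosome 4, 42949814 to 42959425), a cochaperone of HSP70, measured 125, 117, 116 and 107 CPM in the SOR libraries, against 80.0, 80.2, 80.9 and 85.8 CPM in the homecage. The homecage libraries were the most uniform of any member, with a coefficient of variation of 3.34%. Dnajb5 rose 1.425-fold, a log2 fold change of 0.51 (SE 0.0766), at an edgeR adjusted p of 0.0404. The call was lost under the replicate block (edgeR adjusted p 0.140), with tTA as a covariate (0.0907), with upper quartile scaling (0.0770) and with at least 10 counts in every library (0.0514). Dnajb1 (HSP40, ENSMUSG00000005483.10, chromosome 8, 83608193 to 83612653), the J-domain partner that HSF1 induces together with HSP70, stood at 75.8, 64.3, 57.4 and 69.8 CPM against 44.2, 41.4, 52.8 and 51.8 CPM. Its log2 fold change of 0.49 (SE 0.111) was of the same size as that of Dnajb5, with a wider spread in both groups, and it was not called (edgeR adjusted p 0.269).

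The 2 most abundant chaperones, constitutive Hspa8 and inducible Hsp90aa1, differed less. Hspa8 (ENSMUSG00000015656.17, chromosome 9, 40800984 to 40810087) measured 2969, 2357, 2516 and 2893 CPM in the SOR libraries, against 2022, 1880.1, 2364 and 2488 CPM in the homecage. SOR replicate 2 lay below homecage replicates 3 and 4, so the groups overlapped. Hsp90aa1 (ENSMUSG00000021270.13, chromosome 12, 110690605 to 110702728) stood at 1549, 1376, 1772 and 1616 CPM against 1279, 1117, 1413 and 1395 CPM, with SOR replicate 2 again below homecage replicates 3 and 4. The log2 fold changes were 0.29 (SE 0.112) for Hspa8 and 0.28 (SE 0.103) for Hsp90aa1, each with an edgeR adjusted p of 0.621.

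Among the HSP110 members, Hsph1 (ENSMUSG00000029657.15, chromosome 5, 149614287 to 149636376) measured 298, 303, 392 and 302 CPM in the SOR libraries, against 265, 241, 259 and 272 CPM in the homecage. The groups did not overlap, and SOR replicate 3 stood far above the other SOR libraries. Hspa4 (ENSMUSG00000020361.13, chromosome 11, 53259814 to 53300457) stood at 415, 399, 455 and 396 CPM against 361, 345, 376 and 381 CPM, also without overlap and with SOR replicate 3 highest. The log2 fold changes were 0.32 (SE 0.101) for Hsph1 and 0.19 (SE 0.0784) for Hspa4, the lowest of the 10, with edgeR adjusted p of 0.604 and 0.637. Cryab (ENSMUSG00000032060.10, chromosome 9, 50751325 to 50756636) stood at 71.5, 64.4, 64.2 and 70.1 CPM against 55.5, 52.8, 65.4 and 55.9 CPM. SOR replicates 2 and 3 lay below homecage replicate 3, and the log2 fold change was 0.23 (SE 0.0896) at an edgeR adjusted p of 0.621. Oligodendrocyte markers, whose cells hold much Cryab, summed to 6626 to 7726 CPM after SOR and 5996 to 7164 CPM in the homecage, and all 8 were higher after SOR, none of them called. Their part in the difference of Cryab was not tested.

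The calls rested on few libraries. Without homecage replicate 1, 2 or 3 none of the 10 was called, and the edgeR adjusted p of Hspa1b was then 0.0817, 0.0569 and 0.0604. Without SOR replicate 1, SOR replicate 2 or homecage replicate 4, Hspa1b was the only call, and without SOR replicate 4 both calls held. Without SOR replicate 3 there were 5 calls (Hspa1a, Hspa1b, Dnajb1, Dnajb5 and Hspb1), in a fit that called 0.219% of all genes. In the 2 tTA+ homecage and 3 tTA+ SOR libraries alone none was called among the 10 or among all genes, all 10 stayed higher, and 4 had an unadjusted p under 0.05. Without SOR replicates 1 and 2, which held choroid plexus, none was called, and the median over the 10 was 0.42.

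**Figure D2:**
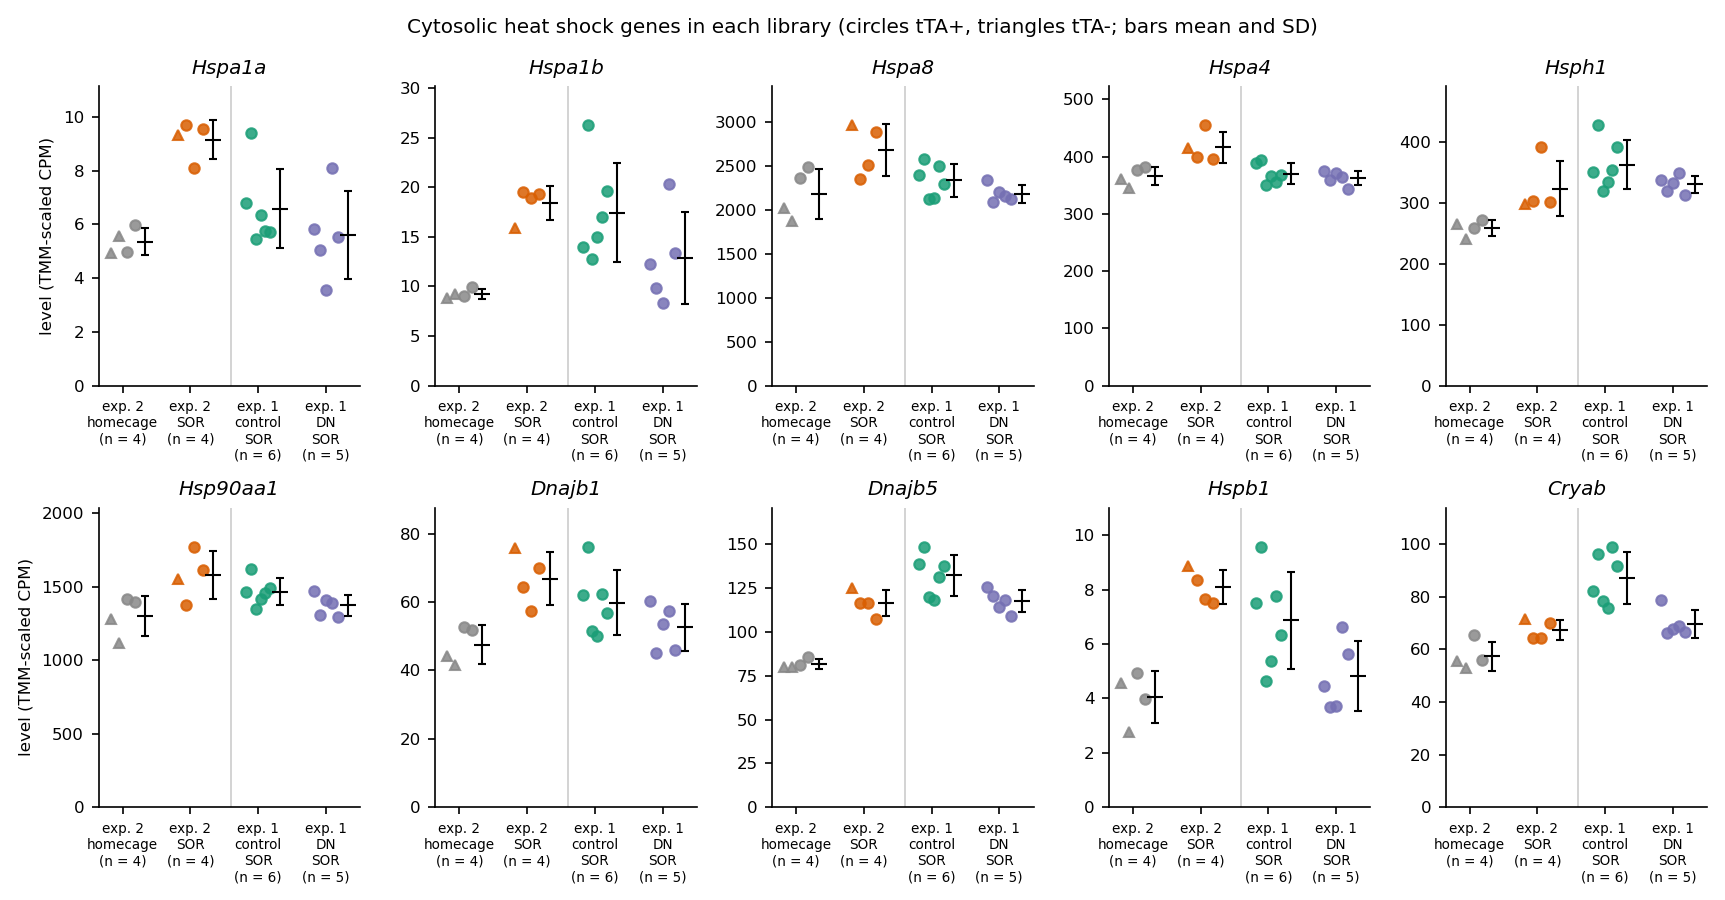
Level of each member (TMM-scaled CPM) in every library of the 4 groups, with circles for tTA+ and triangles for tTA- mice and bars for the mean and SD. In experiment 2 the SOR and homecage libraries separate in 7 of the 10 panels, and in experiment 1 the DN and control libraries overlap in all 10.

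The second comparison asked how the members differed between DN and control mice, all of them tTA+ and exposed to SOR. All 10 had a lower mean with DN. Their median log2 fold change was -0.18 against 0.00 over the 22391 genes tested, of which 49.98% were lower. None was called by edgeR, DESeq2 or limma-voom, and the edgeR adjusted p was 0.999 for each, where 0.00893% of all genes were called. An unadjusted p under 0.05 was found in 4 of the 10 (Cryab, Dnajb5, Hspb1 and Hsp90aa1), against 3.83% of all genes in either direction and 1.81% in the lower direction. The DN and control libraries overlapped in all 10, and 0.299% of genes were without overlap, 0.103% in the lower direction.

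Cryab had the smallest p of the 10. It measured 78.9, 66.2, 67.6, 69.0 and 66.5 CPM in DN replicates 1 to 5, against 82.1, 96.2, 78.3, 75.6, 99.2 and 91.8 CPM in control replicates 1 to 6. DN replicates 2 to 5 lay below every control library, and DN replicate 1 lay above control replicates 3 and 4. The log2 fold change was -0.32 (SE 0.0763), at an unadjusted edgeR p of 0.00108, the 9th smallest of all genes, and an adjusted p of 0.999. DESeq2 gave an adjusted p of 0.0685. Oligodendrocyte markers summed to 6887 to 7548 CPM with DN and 7143 to 8390 CPM in the controls, and 7 of the 8 were lower, none of them called; their part in the difference was not tested.

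The J-domain member Dnajb5 measured 126, 121, 114, 118 and 109 CPM with DN, against 139, 149, 120.1, 118, 131 and 138 CPM in the controls. Of the controls, 4 lay above every DN library, and replicates 3 and 4 lay among them. Its log2 fold change was -0.17 (SE 0.0551), at an unadjusted edgeR p of 0.00689 and an adjusted p of 0.999. Dnajb1 measured 60.4, 45.2, 53.7, 57.5 and 46.0 CPM with DN, against 62.0, 76.2, 51.4, 49.9, 62.4 and 56.7 CPM in the controls. The lowest 2 DN libraries lay below all controls, and the log2 fold change was -0.18 (SE 0.124).

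The inducible HSP70 pair and Hspb1 varied most between mice of experiment 1, with coefficients of variation of 22.4% to 36.1% in its groups, against 3.52% to 16.0% for the other 7. Hspa1b measured 12.3, 9.85, 8.34, 20.3 and 13.3 CPM with DN, against 14.0, 26.3, 12.8, 15.0, 17.0 and 19.7 CPM in the controls. DN replicate 4 stood above 5 of the 6 controls, while DN replicates 1 to 3 stood below all of them. The log2 fold change was -0.43 (SE 0.266), with a coefficient of variation of 36.1% among the DN libraries. Hspa1a stood at 5.81, 5.06, 3.56, 8.09 and 5.52 CPM against 6.80, 9.41, 5.46, 6.35, 5.74 and 5.70 CPM, a log2 fold change of -0.22 (SE 0.194). DN replicate 4 and control replicate 2 were the highest libraries of their groups in both copies. Summed, the copies had a log2 fold change of -0.37 (SE 0.246). Hspa1b took 66.1% to 71.5% of the summed counts with DN and 67.3% to 77.5% in the controls.

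Hspb1 measured 4.44, 3.70, 3.74, 6.61 and 5.64 CPM with DN, against 7.51, 9.58, 4.63, 5.37, 7.77 and 6.32 CPM in the controls. DN replicate 4 was again the highest of its group. The log2 fold change of -0.50 (SE 0.208) was the farthest from 0 of the 10, with an unadjusted edgeR p of 0.0342 and an adjusted p of 0.999.

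The abundant members differed little. Hsp90aa1 measured 1467, 1309.6, 1408, 1386 and 1289.8 CPM with DN, against 1464, 1618, 1347, 1412, 1457 and 1491 CPM in the controls, a log2 fold change of -0.09 (SE 0.0435) at an unadjusted edgeR p of 0.0426 and an adjusted p of 0.999. Hspa8 stood at 2348, 2092, 2205, 2161 and 2121 CPM against 2396, 2577, 2122, 2137, 2507 and 2295 CPM, a log2 fold change of -0.10 (SE 0.0488). Hsph1 ranged from 314 to 349.8 CPM with DN and from 319.9 to 428 CPM in the controls, a log2 fold change of -0.13 (SE 0.0633). Hspa4 ranged from 343 to 376 CPM and from 349.9 to 394 CPM, and its log2 fold change of -0.03 (SE 0.0383) was within its SE.

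Control replicate 2 was the highest of the 6 controls in 9 of the 10 members (all but Cryab), and control replicates 3 and 4 were the lowest in 7 and 3. Activity-regulated genes (a list of 12 that includes Fos, Arc and Npas4) summed to 976 CPM in control replicate 2, the highest library, to 566 and 538 CPM in control replicates 3 and 4, the lowest controls, and to 497 to 679 CPM with DN. Their part in the differences was not tested. Without control replicate 2 all 10 members were still lower with DN, but the median was -0.10 and 2 had an unadjusted p under 0.05. Without control replicates 1 and 2 and DN replicate 2, which held choroid plexus, 9 were lower, Hspa4 was at 0.02, and the median was -0.05. Cryab, at -0.29, was then the farthest from 0, Hspb1 was at -0.22 and Hspa1b at -0.23, and Dnajb1 at -0.017 and Hspa1a at -0.0031 were near 0. Cryab and Dnajb5 alone then had an unadjusted p under 0.05. The share of all genes under that p was not counted in the fits with libraries left out.

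**Figure D3:**
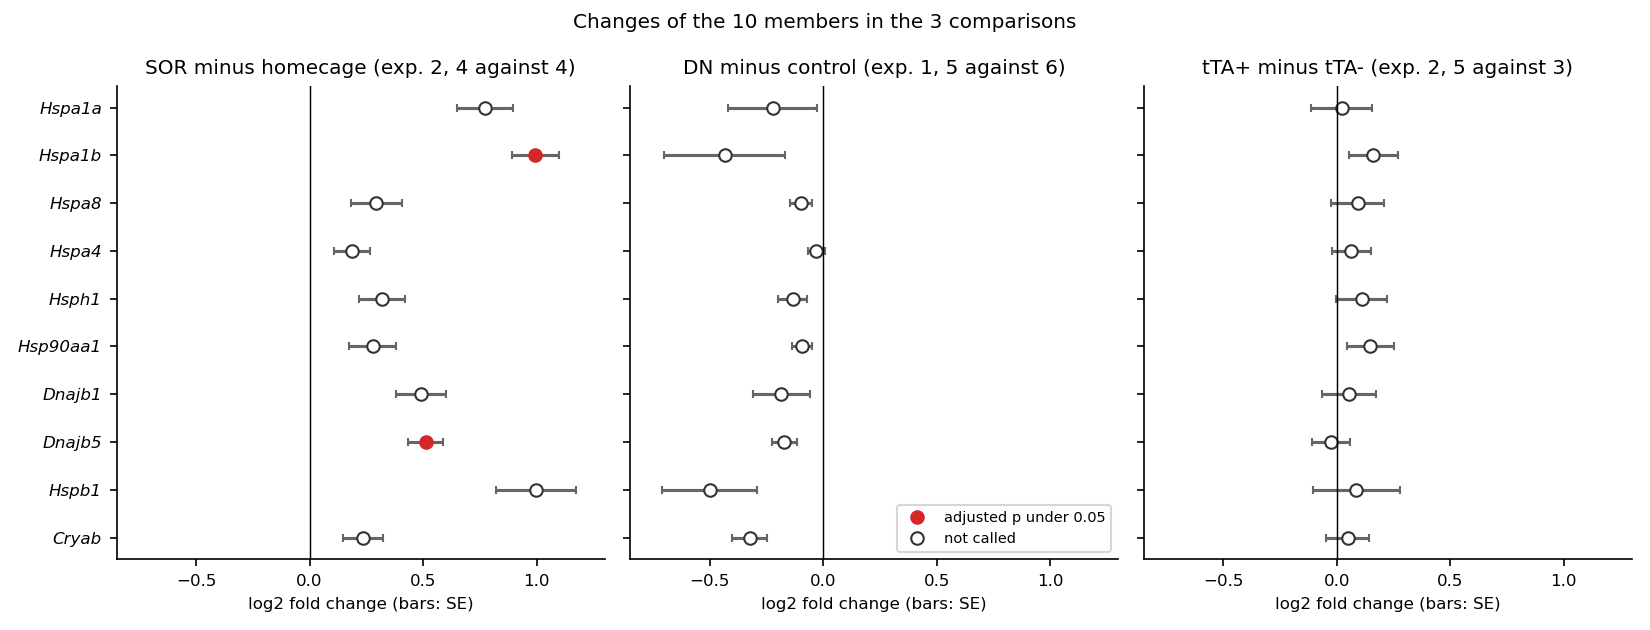
Log2 fold change of each member with its SE in the 3 comparisons, with filled points for an edgeR adjusted p under 0.05. All 10 points lie above 0 for SOR, where Hspb1 at 0.996 and Hspa1b at 0.99 lie farthest, and all 10 lie below 0 for DN, from Hspb1 at -0.50 to Hspa4 at -0.03.

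Set side by side, the comparisons share no library. With SOR all 10 members were higher and with DN all 10 were lower, a combination found in 29.9% of the 21740 genes tested in both. An unadjusted p under 0.05 in both, in those directions, was found in 4 members (Cryab, Dnajb5, Hspb1 and Hsp90aa1) and in 0.253% of all genes. Cryab and Dnajb5 alone kept it with DN without control replicate 1, 2 or 5, without DN replicate 2, and without the 3 libraries that held choroid plexus. No member was called in both. Across the 10 members, which share their libraries, the log2 fold changes had a Pearson r of -0.81 and a Spearman rho of -0.73. Without the libraries that held choroid plexus, an alternative chosen after seeing the data, r was -0.39 and rho -0.35, and with 1 library left out r ran from -0.91 to -0.63. Over all 21740 genes r was -0.20 and rho -0.19. Cryab stood at 0.23 after SOR and at -0.32 with DN, where only Hspb1 and Hspa1b of the 10 were lower. After SOR the greatest differences were those of Hspb1, Hspa1b and Hspa1a, the 3 members with the fewest counts. Hspa4 had the least in both.

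The third comparison asked whether tTA+ and tTA- mice of experiment 2 differed in the members, with exposure in the model. None was called by edgeR, DESeq2 or limma-voom, against 0.358% of the 22904 genes tested, and none had an unadjusted p under 0.05, against 5.71% of genes. The 5 tTA+ and 3 tTA- libraries overlapped in all 10, and 5.81% of genes were without overlap. Log2 fold changes ran from -0.03 (SE 0.0848) for Dnajb5 to 0.16 (SE 0.106) for Hspa1b, with a median of 0.07. In the replicate block the tTA term rests on replicate 2, the only number with both genotypes. Hspb1 was at 0.76 there and the other 9 at 0.03 to 0.19. With no exposure term the highest was Hspa1b at 0.43, and none was called. Without SOR replicate 1, the only tTA- mouse with SOR, the median was 0.13, and Hspa8 at 0.32 and Dnajb1 at 0.29 had an unadjusted p under 0.05. Without homecage replicate 2 the median was 0.03, with 3 of the 10 lower, and without homecage replicate 3 it was 0.06, with 4 lower. The SE was highest for Hspb1, at 0.190, and Hspa1a, at 0.134. Within the homecage group the tTA- mice (replicates 1 and 2) had the lower 2 values of Hspa8, Hspa4, Hsp90aa1, Dnajb1, Dnajb5 and Cryab. In the SOR group the tTA- mouse was instead the highest of 4 in Hspa8, Dnajb1, Dnajb5, Hspb1 and Cryab.

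Members were also compared between mice of the same group, by correlating their log2 CPM after the mean of each group was removed. In experiment 1 all 45 pairs had a positive Pearson r over the 11 libraries, with a median of 0.66 and a range of 0.21 to 0.91. Over all pairs of 16850 genes with a mean of at least 1 CPM, the median r was 0.00 and 50.1% were positive. By permutation test with Benjamini-Hochberg adjustment over the 45 pairs, 23 had an adjusted p under 0.05 for r, and 18 for both r and rho. The permutations moved the centred values across the groups of the experiment, whose spread can differ, so these p-values are approximate. The closest pair was Hsp90aa1 and Dnajb1, with r = 0.91 (permutation p = 1.6e-04, adjusted 0.0045) and rho = 0.77 (permutation p = 0.00728, adjusted 0.0328), and r was 0.85 without the 2 libraries farthest from the median of Hsp90aa1. Hspa8 and Dnajb1 followed, with r = 0.90 (permutation p = 2e-04, adjusted 0.0045), rho = 0.92 (permutation p = 2.1e-04, adjusted 0.00945), and r = 0.85 without 2 libraries. Hspa1a and Hspa1b, which may share reads, had r = 0.85 (permutation p = 0.00127, adjusted 0.0077) and rho = 0.65 (permutation p = 0.0328, adjusted 0.0671), and r = 0.70 without 2 libraries. The loosest pair was Hspa1b and Hspa4, with r = 0.21 (permutation p = 0.526, adjusted 0.526) and rho = 0.19 (permutation p = 0.575, adjusted 0.575), and r = -0.23 without 2 libraries.

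Control replicate 2 was above its group mean in all 10 members and control replicates 3 and 4 in none. With the 2 libraries farthest from the median of the first gene of each pair left out, the median r was 0.60 and 42 pairs were positive. In experiment 2, with 8 libraries, 32 of 45 pairs were positive and the median r was 0.22. None had an adjusted p under 0.05 by permutation over all 40320 arrangements, again across groups. The median r fell to 0.047 without 2 libraries. Hspa4 and Hsph1 were closest there, with r = 0.89 (permutation p = 0.00469, adjusted 0.196) and rho = 0.71 (permutation p = 0.0576, adjusted 0.432), and r = 0.70 without 2 libraries. Hspa1a and Hsph1 were farthest apart, with r = -0.59 (permutation p = 0.114, adjusted 0.530) and rho = -0.26 (permutation p = 0.536, adjusted 0.891), and r = 0.16 without 2 libraries. Whether the experiments differ in this was not tested.

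**Figure D4:**
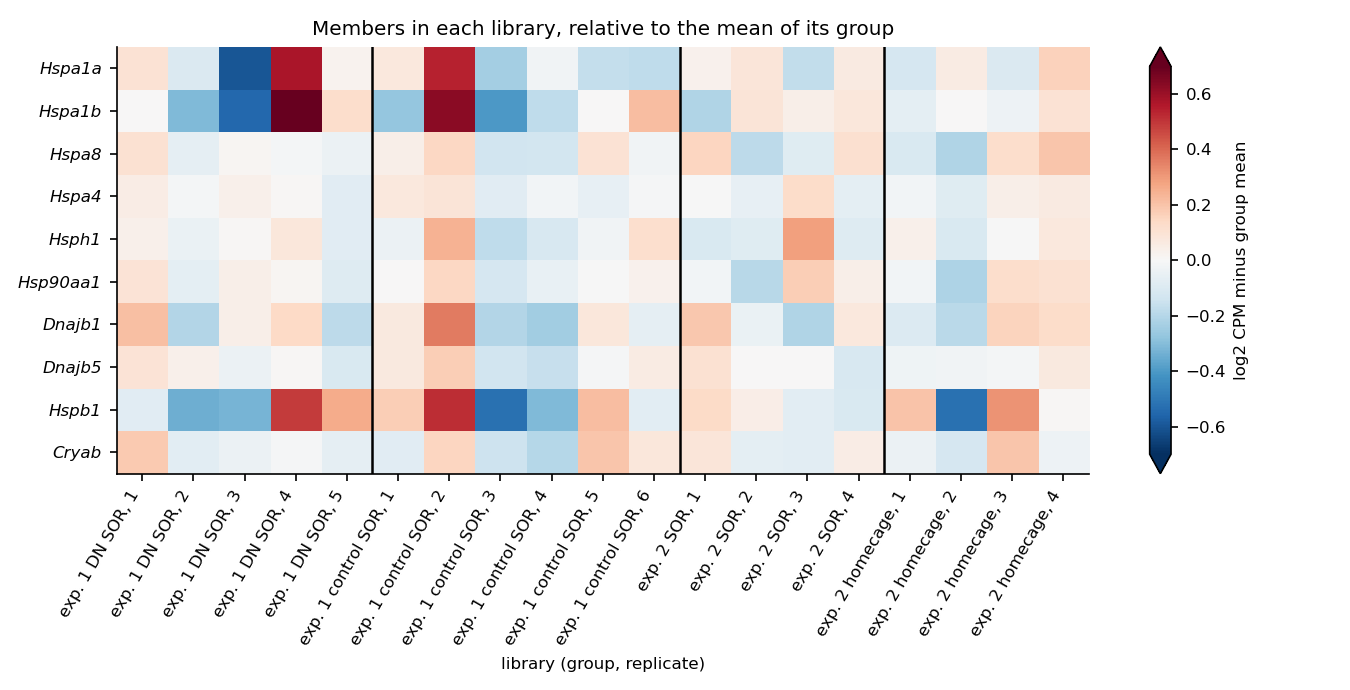
Log2 CPM of each member in each library minus the mean of its group, in red where above and blue where below. Control replicate 2 of experiment 1 lies above the mean in all 10 rows and control replicates 3 and 4 below it in all 10, and the rows of Hspa1a, Hspa1b and Hspb1 have the deepest colours.

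The genes most like 4 of the members, by Pearson r over the 19 libraries with group means removed, were read off among 16840 other genes as a description. For Hspa1b they were Mtmr4 (0.82), Ccdc93 (0.78), Stbd1 (0.76), Ddx31 (0.73) and Ahsa2 (0.72), the last an activator of HSP90. Without the 2 libraries farthest from the median of Hspa1b r was 0.68 for Mtmr4, 0.49 for Ccdc93, 0.49 for Stbd1, 0.35 for Ddx31 and 0.63 for Ahsa2. Within experiment 1 these 5 had an r of 0.77 to 0.88. Within experiment 2 r was 0.60 for Ccdc93, 0.39 for Mtmr4, 0.27 for Ahsa2, 0.26 for Ddx31 and -0.56 for Stbd1. For Hsp90aa1 they were Ndfip1 (0.93), Canx (0.92), Msantd4 (0.92), Rcn2 (0.92) and Cct6a (0.91), of which Canx is calnexin, a chaperone of the endoplasmic reticulum (ER), and Cct6a is a subunit of the cytosolic chaperonin. These were 0.85 to 0.90 without 2 libraries. For Hspb1 they were Manf (0.85), 1700102P08Rik (0.80), Katna1 (0.80), Chek2 (0.80) and Pdia4 (0.79), of which Manf and Pdia4 encode proteins of the ER. These were 0.68 to 0.82 without 2 libraries. For Cryab they were Taf12 (0.84), Gm15920 (0.80), N4bp1 (0.79), Ptges3 (0.79) and Fgf9 (0.78), of which Ptges3 encodes p23, a cochaperone of HSP90. These were 0.68 to 0.84 without 2 libraries, and N4bp1 had an r of 0.92 within experiment 1 and 0.42 within experiment 2.

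Other chaperone genes were described as lists beside the members. After SOR all 16 genes of HSP90 and its cochaperones were higher, none was called, 7 had an unadjusted p under 0.05, and the median log2 fold change was 0.21. Fkbp5, an HSP90 cochaperone that glucocorticoids induce, had the smallest p, at 70.0 ± 11.8 CPM after SOR against 47.8 ± 5.15 CPM (SD), a log2 fold change of 0.55 (SE 0.126) at an edgeR adjusted p of 0.269. All 8 subunits of the TRiC chaperonin were higher, with none called and a median of 0.17. Of 10 other cytosolic J-domain genes 9 were higher, with none called and a median of 0.13, and Dnaja4 had the smallest p at 0.32 (SE 0.124, edgeR adjusted p 0.621). Of 6 HSP70 and HSP110 relatives 5 were higher, with none called and a median of 0.15, and Hspa14 stood at 0.29 (SE 0.105, edgeR adjusted p 0.621).

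The 7 nucleotide exchange and BAG factors had a median of 0.08 with 6 higher and none called, and Hspbp1 had the smallest p at 0.34 (SE 0.173). Of the small heat shock proteins outside the 10, 3 of 6 passed the filter, and Hspb8 stood at 0.42 (SE 0.118, edgeR adjusted p 0.49995) while the other two were lower. The heat shock factors and regulators of HSF1 had 4 of 5 higher, none called, and a median of 0.16, with Hsf1 at 0.20 (SE 0.0966). All 7 mitochondrial chaperones were higher, none called, with a median of 0.14 and Hspd1 at 0.22 (SE 0.0927). All 6 ubiquitin and stress genes were higher, none called, with a median of 0.28 and Gadd45b at 0.43 (SE 0.157). The list of ER relatives, in which Sdf2l1 is of none of the members' families, had the only calls, 3 of 7. Of the 7, 6 were higher and Dnajb9 was at -0.07. Hspa5 (BiP, the HSP70 of the ER) rose by 0.87 (SE 0.119), Sdf2l1 by 1.05 (SE 0.141) and Dnajc3 by 0.46 (SE 0.0700) on the log2 scale, with edgeR adjusted p of 0.0228, 0.01995 and 0.0432. These 3 were known as calls when the list was written and are no independent support.

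With DN no gene of these lists was called by edgeR. Of the HSP90 list 13 of 16 were lower, with a median of -0.07 and 4 at an unadjusted p under 0.05, of which Fkbp4 at -0.16 (SE 0.0484, edgeR adjusted p 0.999) had the smallest. All 8 TRiC subunits were lower, with a median of -0.05, none at an unadjusted p under 0.05, and Cct5 at -0.07 (SE 0.0406). All 7 genes of the ER list were lower, with a median of -0.19 and 6 at an unadjusted p under 0.05. Of these, Dnajb9 at -0.16 (SE 0.0579, edgeR adjusted p 0.999) had the smallest p and Sdf2l1 at -0.47 the greatest difference. The medians were -0.03 for the J-domain genes (6 of 10 lower, Dnaja1 at -0.10), -0.02 for the exchange factors (5 of 7 lower, Bag3 at -0.21), -0.07 for ubiquitin and stress genes (5 of 6 lower, Ier5 at -0.19) and -0.01 for mitochondrial chaperones (5 of 7 lower, Hspe1 at -0.11). They were 0.00 for the HSP70 and HSP110 relatives (3 of 6 lower, Hspa4l at -0.11), 0.01 for the heat shock factors (2 of 5 lower, Hsf1 at -0.09) and -0.10 for the small heat shock proteins (2 of 3 lower, Hspb6 at -0.19). By tTA genotype no gene of the lists was called, and the smallest p was that of Hspa12a, at -0.34 (SE 0.0817, edgeR adjusted p 0.19988).

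**Figure D5:**
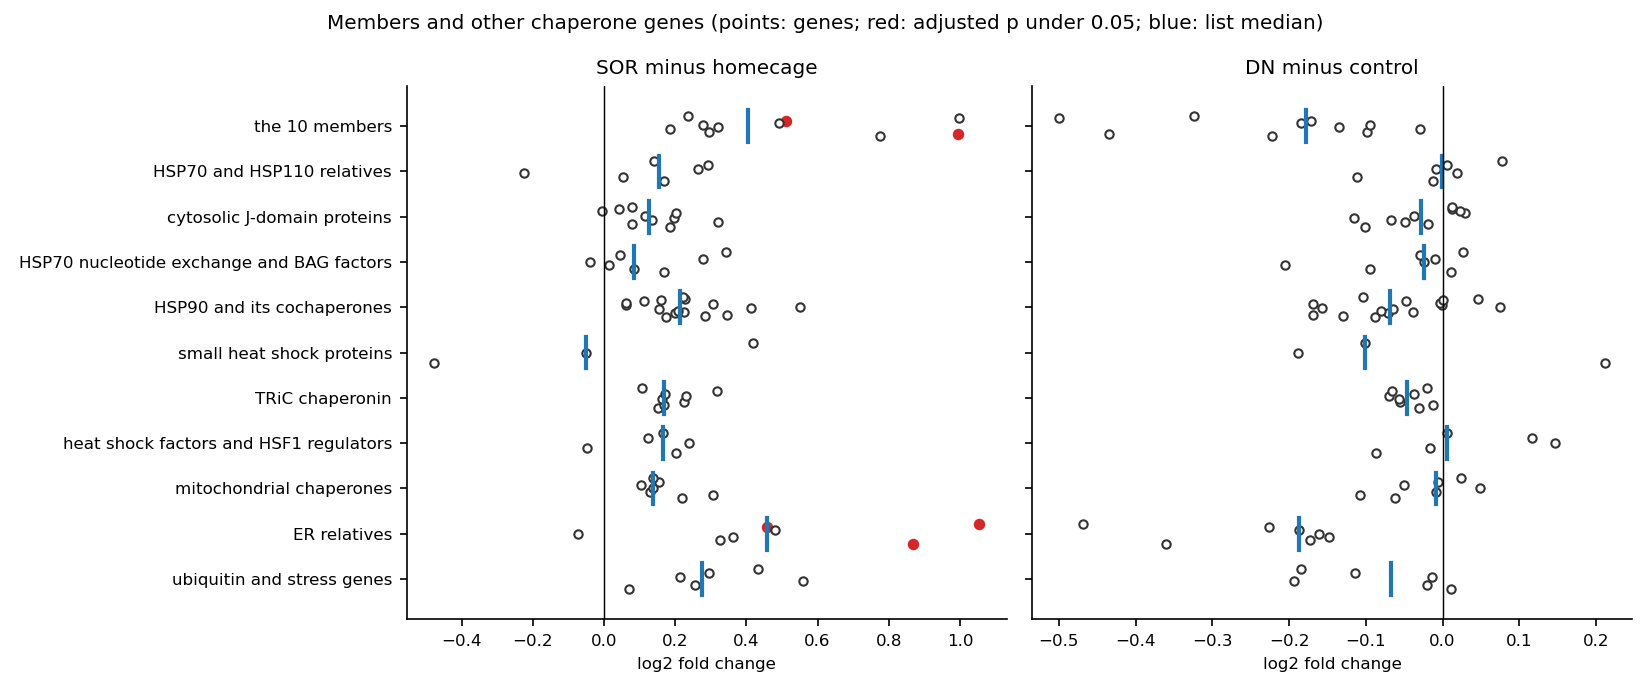
Log2 fold change of the members and of 10 lists of other chaperone and stress genes, with 1 point per gene, red for an edgeR adjusted p under 0.05 and a blue bar for the median. After SOR the medians of the members (0.41) and of the ER relatives (0.46) lie highest, and with DN theirs (-0.18 and -0.19) lie lowest.

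Some members overlap other annotated genes. Cryab overlaps Hspb2 on the opposite strand, which had 134 counts in all libraries together against 54653 for Cryab. Hspa8 holds 3 small nucleolar RNA genes (Snord14c, Snord14d and Snord14e) and Hspa1a overlaps Gm20481, all with 0 counts. Whether strand was used in counting is not given in the sources used here.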

How the data were processed

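The 19 libraries, of total RNA freed of ribosomal RNA, fell into 4 groups. The authors deposited raw read counts per gene, as 1 table of 51789 genes by versioned Ensembl identifier. The submitters' processing notes name STAR, SAMtools 1.6, featureCounts 1.4.4 and mm10; strand and the treatment of multiply mapped reads are not given in the sources used here. Group, genotype and replicate came from the labels. Symbols, positions and exon lengths came from GENCODE M21 on GRCm38, which held 51596 identifiers (47611 in the same version), and promoters from RefSeq on GRCm38.p6.

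Each experiment was fitted alone across all genes with edgeR 4.0.16 in R 4.3.3 (TMM, filterByExpr, robust quasi-likelihood F test, two-sided, Benjamini-Hochberg, called at an adjusted p under 0.05). The SE of a log2 fold change is its size over the root of its F value. CPM values are scaled by TMM within each experiment, so levels are not compared between experiments by test; log2 CPM used a prior count of 2. Correlations used 100000 permutations with 11 libraries, all 40320 with 8 (numpy 2.4.6, scipy 1.17.1). The fit was tested on simulated counts.

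The text names the 10 members, called genes of 10 chaperone lists, the gene with the smallest p per list and comparison (for the tTA genotype only the smallest over the lists), and, for 4 members, the 5 genes most alike. Those lists, 8 marker lists (neuron, oligodendrocyte, astrocyte, microglia, endothelial and mural, choroid plexus, blood, activity-regulated) and the members were chosen with earlier results of these data known. Astrocyte, microglia, endothelial and blood markers summed to 3941 to 4983, 335 to 388, 181 to 226 and 36.9 to 109.7 CPM over all libraries. No 2 libraries of a group agreed within counting noise (chi-square per degree of freedom of at least 4.63 over genes with 20 counts), so none was counted as a repeat. The labels number the replicates without stating that each is a separate mouse, so p-values measure only the spread between these samples, which may be partly technical. Alternatives were DESeq2 1.42.0 or its size factors, upper quartile scaling, limma-voom (limma 3.58.1), other filters and thresholds, all libraries in 1 fit, a replicate block, summed copies, a tTA term, only tTA+ mice, and each library left out.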

Additional observations from a re-analysis of the deposited data

Results flagged for a closer look

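In 5 of the 40 sets of 1 member in 1 group, the highest or lowest library stood apart from the rest by Dixon's criterion; chance gives about 1 in 20 sets. Cryab was at 78.9 CPM in DN replicate 1, above the next DN library at 69.0 CPM. Dnajb5 was at 85.8 CPM in homecage replicate 4, above the next at 80.9 CPM. Hspa1a was at 9.41 CPM in control replicate 2 of experiment 1, above the next at 6.80 CPM. Hspa1b was at 15.9 CPM in SOR replicate 1 of experiment 2, the tTA- mouse of that group, below the next at 18.9 CPM. Hsph1 was at 392 CPM in SOR replicate 3 of experiment 2, the smallest library, above the next at 303 CPM.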

How the results depend on the processing

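All 10 members stayed higher after SOR under every alternative run, and the count of called members, 2, was the most dependent on the fit. It was 4 at an adjusted p under 0.1 (where 0.157% of all genes were called), 4 with no filter on low counts (0.0975%) and 5 with DESeq2 (0.547%). It was 1 with upper quartile scaling (0.0673%), 1 with at least 10 counts in every library (0.0877%), 1 with tTA as a covariate (0.0493%), and 0 in tTA+ mice alone, where no gene was called. With libraries over 1000 CPM of choroid plexus markers left out, an alternative chosen after seeing the data, it was 0. Leaving out 1 library gave 0 to 5, lower than 2 in 6 of 8 fits. Under the replicate block it was 1 (0.0404% of all genes), with Hspa1b at an edgeR adjusted p of 0.0330 and Dnajb5 at 0.140. With group means removed, same-numbered mice had an r of 0.05 to 0.39 in experiment 2 and -0.05 to 0.19 in experiment 1. SOR replicate 2 and DN replicate 4 were most like the same-numbered mouse of the other group. So few mice cannot settle whether the number is a pairing. The block left the DN count at 0. For tTA it cannot inform the count, since replicate 2 alone holds both genotypes. With DN and with tTA no member was called under any alternative run. Of the log2 fold changes with DN, Hspa4 changed sign, to 0.016 without the choroid-rich libraries, where Dnajb1 and Hspa1a lay near 0. By tTA, Dnajb5 was at 0.043 with the replicate block, 0.094 with no exposure term and 0.056 without the choroid-rich libraries, and Hspa1a at -0.0055 with upper quartile scaling. With 1 library left out, the tTA values ran from -0.0515 to 0.0700 for Hspa1a, -0.0209 to 0.290 for Dnajb1, -0.0681 to 0.0598 for Dnajb5, -0.105 to 0.304 for Hspb1 and -0.0370 to 0.166 for Cryab. The cause was not tested, except that left-out libraries leave fewer samples. The 3 members with the fewest counts, Hspb1 (114 to 427 per library), Hspa1a (119 to 451) and Hspa1b (263 to 1107), had the highest SE with DN.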
